A study of Mus musculus with 3 samples.

Results

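Long noncoding RNAs that are known from the brain or from structures of the cell nucleus were measured in mouse medial prefrontal cortex (mPFC), the inner part of the frontal lobe. Genes were listed by name, with earlier results of these data known. The list held 10 genes: Malat1, Neat1, Miat, Rmst, Pantr1, Dlx6os1, Gas5, Snhg1, Snhg11 and Snhg12. Of these, 8 had a value among the 46073 gene rows of the RNA table, while Rmst and Snhg1 were matched to no row and their levels are not analysed here. Dlx6os1 had 2 rows under its symbol, and its higher row was used unless both are given. The tissue came from untreated C57BL/6 mice aged 3 months, and the labels give no treatment, allele or second condition. The series holds 3 samples, and the MeDIP and input DNA samples are not analysed here. For RNA the design text states 3 replicates, but the table gives 1 value per gene, so the values carry no error and no difference could be tested.

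Malat1, Neat1 and Miat are RNAs of the nucleus. Malat1 gathers at nuclear speckles, which store splicing factors, Neat1 is the scaffold of paraspeckles, and Miat, also called Gomafu, forms foci of its own in neurons and binds splicing factors. Pantr1, Rmst and Dlx6os1 are RNAs of neural development. Pantr1 lies beside the transcription factor gene Pou3f3, Dlx6os1 (Evf2) runs through the Dlx5 and Dlx6 locus of forebrain GABA neurons, and RMST acts with SOX2 in human neural precursors. Gas5, Snhg1, Snhg11 and Snhg12 are host genes: small nucleolar RNAs (snoRNAs), which guide the modification of ribosomal and other RNAs, are cut from their introns. Gas5 is also known as a decoy of the glucocorticoid receptor, and its spliced RNA starts with a terminal oligopyrimidine tract and is subject to nonsense-mediated decay.

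RefSeq promoter windows, from 250 bases before to 50 after an annotated start, were found for 7 of the 10 genes in 9 windows (build GRCm38.p6, the assembly of mm10). Of these, 5 are shown from 150 bases before the start onward, 3 from snoRNA hosts and 1 each from the nuclear and the Dlx group, since they differ in what lies at and just before the start. Capitals mark the cyclic AMP response core TGACG, the TATA box TATAAA, the similar run TATATA and the homeodomain core TAATTA, each on either strand, and also the run of C and T that holds the start base where it has 4 or more bases. The Gas5 stretch is chr1:161035016-161035215 (plus strand) and surrounds the second of its 2 annotated starts. The others are chr4:132308528-132308727 (plus) for Snhg12, chr19:8723337-8723536 (plus) for Snhg1, chr19:5802623-5802822 (minus) for Malat1 and chr6:6869484-6869683 (minus) for Dlx6os1.
Gas5: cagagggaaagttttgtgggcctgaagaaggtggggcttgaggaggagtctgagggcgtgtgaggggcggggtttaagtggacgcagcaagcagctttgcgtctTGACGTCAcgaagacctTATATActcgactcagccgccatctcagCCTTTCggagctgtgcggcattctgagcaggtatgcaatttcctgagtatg
Snhg12: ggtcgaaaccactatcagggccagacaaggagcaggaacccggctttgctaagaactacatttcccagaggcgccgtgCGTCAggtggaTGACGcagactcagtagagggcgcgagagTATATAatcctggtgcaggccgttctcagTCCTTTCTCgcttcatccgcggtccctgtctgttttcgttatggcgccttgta
Snhg1: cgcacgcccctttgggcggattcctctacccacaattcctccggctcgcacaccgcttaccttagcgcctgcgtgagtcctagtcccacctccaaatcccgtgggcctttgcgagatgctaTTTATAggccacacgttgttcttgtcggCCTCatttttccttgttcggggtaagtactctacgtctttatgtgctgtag
Malat1: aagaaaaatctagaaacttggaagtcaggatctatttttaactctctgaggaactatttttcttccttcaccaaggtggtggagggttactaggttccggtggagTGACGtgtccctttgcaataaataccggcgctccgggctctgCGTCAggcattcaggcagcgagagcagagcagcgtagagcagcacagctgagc
Dlx6os1: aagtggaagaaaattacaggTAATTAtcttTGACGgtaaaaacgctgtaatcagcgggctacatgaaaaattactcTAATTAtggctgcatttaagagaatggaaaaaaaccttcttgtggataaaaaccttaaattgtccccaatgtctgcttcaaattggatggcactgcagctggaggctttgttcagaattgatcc

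Gas5, at its second annotated start, and Snhg12 carried the same elements in the same order. These were a TGACG, then a TATATA and then a pyrimidine run at the start. The window of the first Gas5 start had none of them. In Gas5 the full cyclic AMP response element TGACGTCA began 46 bases before the start, TATATA began 29 bases before it, and the run had 6 bases. In Snhg12, TGACG began 61 bases before the start and, on the opposite strand, 72 bases before it, TATATA began 32 bases before it, and the run had 9 bases. Snhg1 had a TATAAA on the opposite strand 29 bases before the start and a run of 4 bases, and TATAAA was also in the second Dlx6os1 window, 86 and 30 bases before its start. Over all 32851 windows, TGACG was present in 20.8%, TGACGTCA in 1.79%, TATAAA in 13.6% and TATATA in 5.67%. TGACG is part of TGACGTCA, so the 2 counts overlap, and TATATA was added to the search after the sequences were seen.

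A pyrimidine run of 6 or more bases at the start was found in 3 of the 9 windows, against 7.25% of all windows. These were the windows of the second Gas5 start, Snhg12 and Miat. The share was 18.7% (14 of 75) in windows of long non-coding RNAs at 10 FPKM or more, which include those of the listed genes at that level. Among 11 windows of ribosomal and translation genes known for a pyrimidine start it was present in 2, and no difference between these sets was tested. Among 19 windows of all the non-coding snoRNA hosts considered, these included, 6 had such a run. Malat1 had a run of 2 bases, with TGACG at 45 and, on the opposite strand, at 3 bases before the start. Both Dlx6os1 windows held TAATTA, the core that many homeodomain proteins bind. In the window shown it began 130 and 74 bases before the start, and in the other window 174 bases before it. This motif was found in 5.29% of all windows and in none of the other 7 windows of the listed genes. It holds only A and T, and the Dlx6os1 windows had a GC content of 35.7% and 35.3%. The median over all windows was 52.7%, and the share of 5.29% was not adjusted for this. None of the 9 windows held the E-box CACGTG (7.15% of all windows) or the ETS core CCGGAAG (8.86%), CCAAT (37.4%) was in 1 and GGGCGG (35.7%) in 4. These matches describe letters in the windows and do not show that a factor binds there.

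The 8 measured RNAs had a median of 60.9 FPKM (fragments counted per kilobase and per 1000000 mapped ones), against 0.0659 FPKM for the 3189 rows that RefSeq lists as long non-coding RNA and 0.0414 FPKM for all rows. With mitochondrial rows removed and the rest rescaled to a sum of 1000000, the median of the 8 was 154.6, so levels and the counts at fixed limits that follow hold for the deposited scale. At 1 FPKM, the limit used here for detection, all 8 were detected, where 31.5% of all rows and 15.9% of long non-coding RNA rows were. At 10 FPKM or more stood 7 of the 8, with Dlx6os1 below. Only 2.51% of long non-coding RNA rows and 29.1% of protein-coding rows reached that level. Well-studied RNAs of this kind tend to be abundant ones, so these counts describe the list and not long noncoding RNAs at large. The 8 genes together made up 13.1% of the summed FPKM of long non-coding RNA rows.

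**Figure D1:**
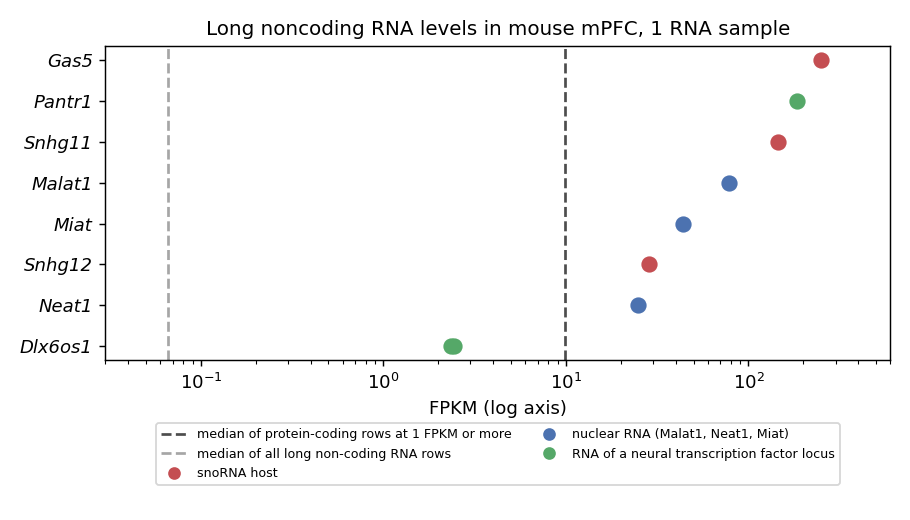
FPKM of each measured long noncoding RNA in the 1 RNA sample (horizontal log axis), with 1 point per row, both rows of Dlx6os1 drawn, and a dashed grey line at the median of long non-coding RNA rows, 0.0659 FPKM. Gas5, at 248 FPKM, is highest, and Dlx6os1, near 2.4 FPKM, is the only gene left of the dark line at 9.86 FPKM, the median of protein-coding genes at 1 FPKM or more.

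The order of the levels was Gas5, Pantr1, Snhg11, Malat1, Miat, Snhg12, Neat1 and Dlx6os1. Gas5, Pantr1, Snhg11 and Malat1 took ranks 4 to 7 among long non-coding RNA rows, directly below AY036118, Rian and Meg3 at 1217, 358 and 253 FPKM. Miat ranked 13, Snhg12 27, Neat1 32 and Dlx6os1 270. Steps between neighbours in this order ran from 1.15-fold (Snhg12 over Neat1) to 1.87-fold (Snhg11 over Malat1), with 1 larger step of 10.1-fold from Neat1 over Dlx6os1. Without replicates no step can be set against a spread.

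**Figure D2:**
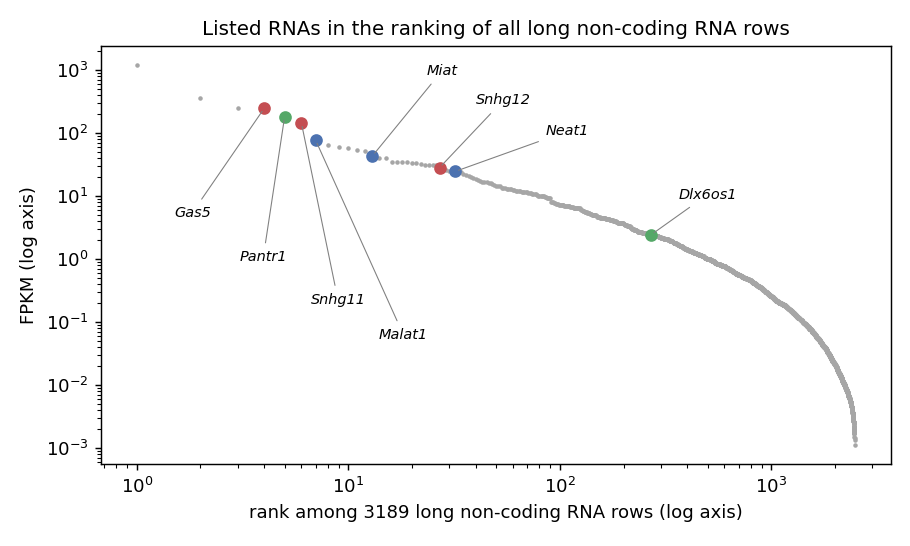
FPKM (vertical log axis) against rank (horizontal log axis) of long non-coding RNA rows, with the listed RNAs coloured as in the plot of levels and rows under 0.001 FPKM not drawn. Gas5, Pantr1, Snhg11 and Malat1 are adjacent at ranks 4 to 7, and Dlx6os1 sits at rank 270.

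Of the nuclear RNAs, Malat1 (chromosome 19, 5795690 to 5802672) was at 78.1 FPKM, Miat (chromosome 5, 112213228 to 112228948) at 43.7 FPKM and Neat1 (chromosome 19, 5824708 to 5845480) at 24.8 FPKM. Malat1 was thus 3.15-fold above Neat1, its neighbour on the chromosome, and 1.79-fold above Miat. It exceeded 96.2% of protein-coding rows, with 787 above it. Malat1 was nonetheless 3.24-fold below Meg3, an imprinted RNA of neurons, and 16.4-fold below the mRNA of the synaptic protein gene Snap25. The short cytoplasmic RNA that is cut from the Malat1 end, Mascrna in RefSeq, was matched to no row.

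Genes for proteins of the same nuclear structures were all detected. The 14 paraspeckle protein genes had a median of 22.1 FPKM, close to the level of Neat1. The RNA-binding protein genes Hnrnpk at 194 and Ewsr1 at 181 FPKM stood near the top, and the cleavage factor gene Nudt21 at 8.61 and Rbm14 at 4.14 FPKM lowest. Neat1 was below both genes whose proteins are core partners of its RNA, 2.13-fold below Nono at 52.7 FPKM and 2.20-fold below Sfpq at 54.4 FPKM. The 12 nuclear speckle genes had a median of 46.1 FPKM, with the scaffold gene Srrm2 highest at 79.3, close to Malat1, followed by Srsf2 at 65.9 and the splicing factor gene Srsf1 at 57.7 FPKM. Srsf7 at 25.0 and Pnn at 14.1 FPKM were lowest. Of the splicing factors that bind Miat, Celf3 stood at 75.3, Srsf1 at 57.7, Sf1 at 52.4 and Qk at 24.5 FPKM, so that 3 of the 4 mRNAs were above Miat itself.

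Pantr1 (chromosome 1, 42648200 to 42694825) was at 184 FPKM, the highest of the developmental RNAs and 21.5-fold above Pou3f3 at 8.55 FPKM, whose gene lies 943 bases outside the annotated span of Pantr1. Pou3f3 encodes a POU factor of upper-layer cortical neurons. Pantr2, a second noncoding RNA on the far side of Pou3f3, was at 2.67 FPKM, 68.9-fold below Pantr1. The other Pou3f genes were between 1.10 FPKM (Pou3f4) and 4.48 FPKM (Pou3f1). Pantr1 overlaps another RefSeq noncoding gene, Gm46091, which had no row, and the library keeps no strand, so where they overlap their fragments cannot be told apart.

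Dlx6os1 (chromosome 6, 6820543 to 6871627) was lowest, with rows at 2.36 and 2.44 FPKM. The Dlx mRNAs of its own locus were close, Dlx6 at 3.93 FPKM, 1.61-fold above it, and Dlx5 at 1.44 FPKM, 1.70-fold below it. Dlx1, from the other Dlx pair of these neurons, was at 11.9 FPKM, 4.85-fold above Dlx6os1, and Gad2, an enzyme gene for GABA synthesis, was 8.66-fold above it at 21.2 FPKM. In the list of Dlx genes and GABA neuron factors 8 of 12 were detected, led by Gad1 at 127 FPKM, and Nkx2-1 at 0.0823 and Lhx8 at 0.0286 FPKM, factors of the embryonic ventral forebrain, were lowest. Dlx6 lies inside the annotated span of Dlx6os1, and without strand their fragments cannot be separated with certainty. In a bulk sample, a small number of cells that hold an RNA and little of it per cell cannot be told apart.

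Rmst was matched to no row, so only genes tied to it are given. Hnrnpa2b1, whose protein binds human RMST, was at 124 FPKM, Sox2 at 8.56 and Pax6 at 4.14 FPKM. The repressor gene Rest, known to keep neural genes silent outside neurons, was at 0.511 FPKM, and the proneural factor gene Neurog2 at 0.175 FPKM. Mir1251, a microRNA gene inside Rmst, was listed at 0, which gives no level for Rmst itself. Rmst is best known from midbrain and other developing regions. Of the 6 thalamus and midbrain markers, 1 was detected (Th, the dopamine synthesis enzyme gene, at 1.14 FPKM), their summed level was 3.06 FPKM, and En1 was listed at 0.

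The snoRNA hosts differed widely among themselves. Gas5 (chromosome 1, 161034601 to 161038539) was at 248 FPKM, Snhg11 (chromosome 2, 158375713 to 158386474) at 146 FPKM and Snhg12 (chromosome 4, 132308678 to 132311024) at 28.5 FPKM. Gas5 was 1.70-fold above Snhg11 and 8.73-fold above Snhg12, and 157 protein-coding rows stood above it. Their median, 146 FPKM, was above that of the 5 other measured RNAs at 43.7 FPKM, a difference of 1.72 in log2(FPKM + 1). That difference was 0.95 over the members that overlap no other gene apart from snoRNA and microRNA genes (Snhg11 and Snhg12 against Neat1 and Miat), and 1.30 without Dlx6os1. Malat1 was left out of the former because RefSeq lists Mascrna, which is cut from its end, inside it. The difference describes the listed hosts only, since the 13 other non-coding snoRNA hosts with a row had a median of 6.58 FPKM.

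Other non-coding snoRNA hosts were lower than Gas5 and Snhg11. All 13 with a row passed 1 FPKM and their median was 6.58 FPKM, with Zfas1 at 31.9, Snhg8 at 26.3 and Snhg6 at 19.9 FPKM at the top and Snhg16 (listed as 1810032O08Rik) at 1.97 and Snhg18 at 1.13 FPKM at the bottom. Gas5 was 7.79-fold above Zfas1, and Snhg11 22.8-fold above Snhg14, the host of the imprinted Prader-Willi snoRNAs. Snhg12 stood between Zfas1 and Snhg8. Gas5 was also 3.07-fold above Rps6, and its level was close to the median of 236 FPKM in 12 ribosomal and translation genes known for the same kind of start.

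Genes that act on snoRNAs or on host RNAs stood below Gas5 and Snhg11. The 9 box C/D protein genes had a median of 11.9 FPKM. In that list Snu13 at 66.7, Nop56 at 59.9 and Nop58 at 27.4 FPKM were highest, and the assembly factor genes Znhit6 at 6.45 and Nufip1 at 2.45 FPKM lowest. The 6 box H/ACA genes had a median of 18.0 FPKM, with Nhp2 at 27.2, Nop10 at 23.0 and Gar1 at 18.9 FPKM above Naf1 at 2.83 and Shq1 at 1.29 FPKM, and Snhg12 was 1.67-fold above Dkc1, which encodes the pseudouridine synthase of that complex. The 10 nonsense-mediated decay genes were all detected at a median of 9.55 FPKM, led by Smg5 at 23.2 and Smg9 at 20.6 FPKM. Upf3b at 7.11 and Smg8 at 4.17 FPKM were lowest, and Gas5 was 27.1-fold above the helicase gene Upf1. The glucocorticoid receptor gene Nr3c1 was at 12.8 FPKM, 19.3-fold below Gas5.

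**Figure D3:**
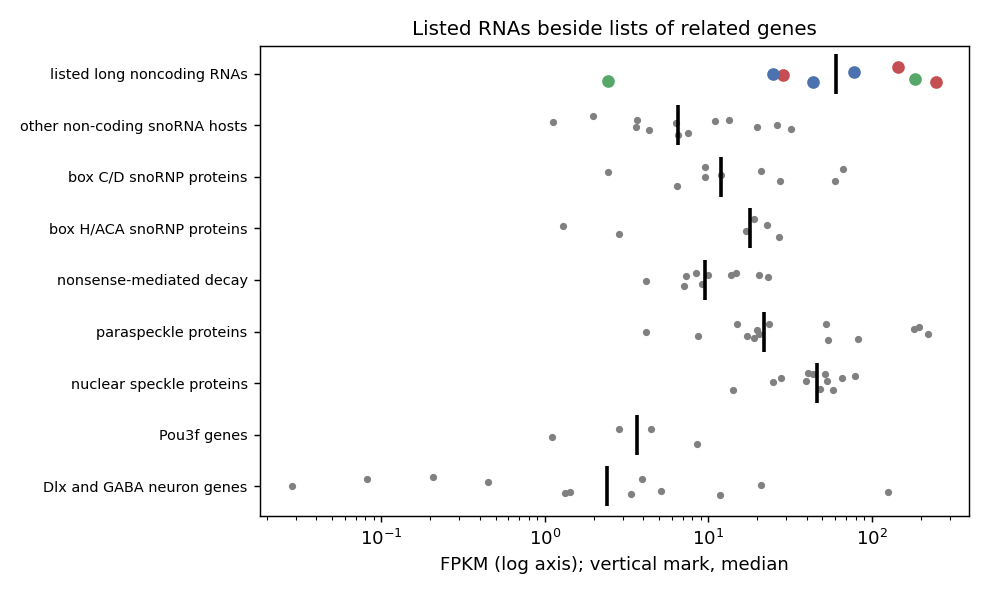
FPKM (horizontal log axis) of the listed RNAs in the top row, coloured as in the plot of levels, and of the genes in 8 related lists, with vertical marks at the medians and points spread in height only to keep them apart. The median of the listed RNAs, 60.9 FPKM, lies right of those of the 8 lists drawn, of which the nuclear speckle list is nearest at 46.1 FPKM. Lists not drawn include the ribosomal and translation genes, at a median of 236 FPKM, and the splicing factors that bind Miat, at 55.1 FPKM.

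RefSeq places 22 snoRNA genes inside the 4 hosts, 8 each in Gas5 and Snhg1, 2 in Snhg11 and 4 in Snhg12, and 7 of them had a row. Snord47 in Gas5 was at 55.7, Gm25129 in Snhg11 at 44.9 and Snord22 in Snhg1 at 33.9 FPKM. In Snhg12, Snora16a was at 14.4 (the higher of 2 rows), Snora61 at 4.87 and Snora44 at 4.16 FPKM, while Snord99 was listed at 5.86e-42 FPKM, which is 0 in practice. Each was below its measured host, and 6 of the 7 were at 1 FPKM or more, against 138 of 1063 snoRNA rows in the table. Snord80, known from another Gas5 intron, was listed at 29.6 FPKM in 1 of its 2 rows, and Snord78, from the same gene, in effect at 0. The snoRNA genes inside the hosts are 56 to 136 bases long, so FPKM of unspliced host RNA, of mature snoRNA and of the length correction cannot be told apart in these values.

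Most of the listed RNAs were above the protein-coding genes on both sides of them. Taking the protein-coding gene with the nearest midpoint on either side, 7 of the 8 exceeded both, where 4.46% of 3164 long non-coding RNA rows did. Of the 505 such rows at 1 FPKM or more, 82 did. By 2-fold or more on the log2(FPKM + 1) scale, 6 of the 8 listed RNAs did. This compares with 1.45% of all such rows and 9.11% of those at 1 FPKM or more. Gas5 was 174-fold above Zbtb37 (1.43 FPKM), which overlaps 1 of its ends. Snhg11 was 39.2-fold above Lbp and 9.74-fold above Ralgapb, Miat 15.5-fold above Mn1 and 73.6-fold above the crystallin gene Cryba4. Malat1 and Neat1 share the neighbour Frmd8 (4.09 FPKM), and were 19.1-fold and 6.05-fold above it. Snhg12 was 2.63-fold above Trnau1ap, 739 bases away. Dlx6os1 was the exception, below Dlx6 and Sem1 at 3.93 and 18.7 FPKM. For the unmeasured Snhg1, the amino acid transporter subunit gene Slc3a2, 118 bases away, was at 31.2 FPKM.

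**Figure D4:**
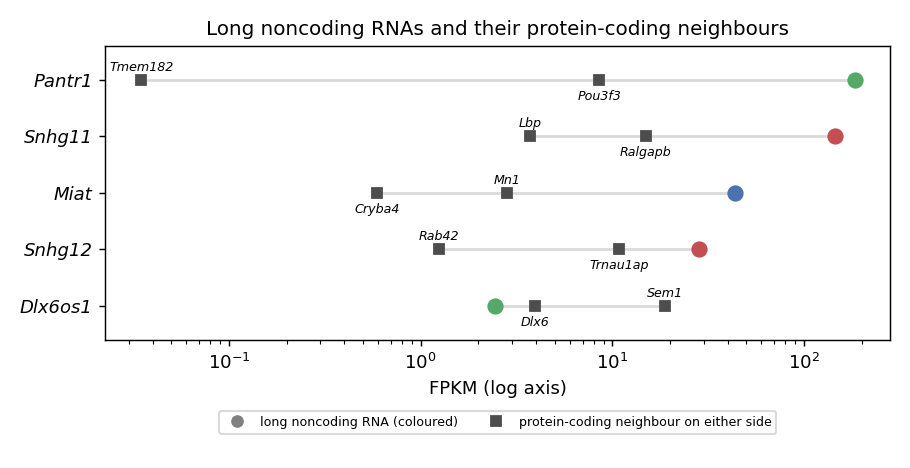
FPKM (horizontal log axis) of 5 of the long noncoding RNAs (coloured circles) and of the protein-coding genes next to each on either side (squares, named). The circle is the rightmost point for Pantr1, Snhg11, Miat and Snhg12 and the leftmost for Dlx6os1.

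The promoter windows also differed in CpG content, the sequence that DNA methylation acts on. CpG observed over expected had a median of 0.788 over the 7 listed genes with a window, against 0.384 over all windows. Snhg1 was highest at 1.07, Gas5 had 0.904 and 0.672 at its 2 starts, Snhg12 0.859, Miat 0.807, Snhg11 0.779 and Malat1 0.604. Dlx6os1 was lowest, with 0.525 and 0.321, and had the lowest GC content, 35.7% and 35.3%, against 73.7% at the first Gas5 start. Over long non-coding RNA windows in general the median was 0.602 for those at 1 FPKM or more (497 windows of 410 genes) and 0.266 for those under it (2590 windows of 2139 genes). Several windows can belong to 1 gene, and methylation itself was not examined.

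**Figure D5:**
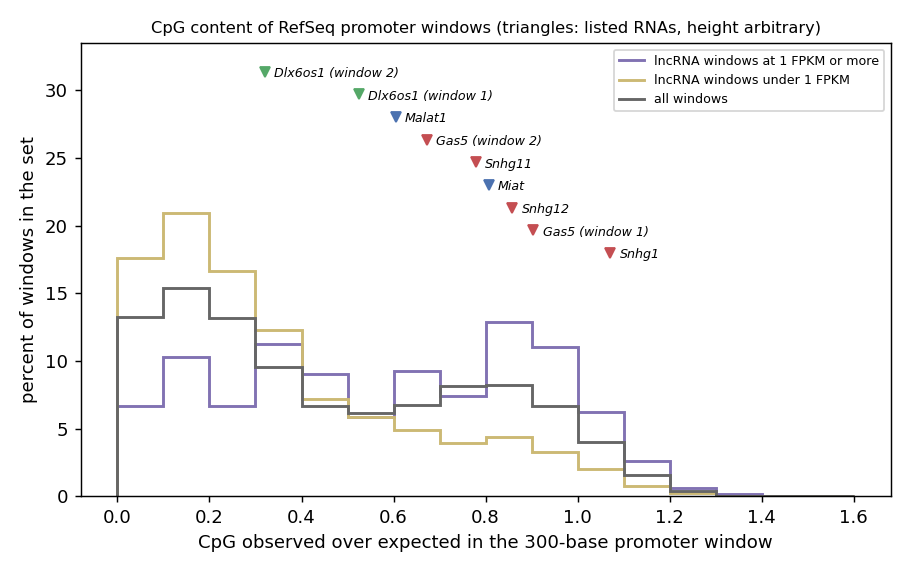
Share of RefSeq promoter windows (vertical axis, percent) by CpG observed over expected (horizontal axis) for long non-coding RNA windows at 1 FPKM or more, for those under it and for all windows. Triangles mark the windows of the listed RNAs at an arbitrary height, from Dlx6os1 at 0.321 and 0.525 on the left to Snhg1 at 1.07 on the right, and windows 1 and 2 of a gene are separate annotated starts.

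The tissue label was checked against marker genes. All 4 neuron markers and all 4 excitatory markers were detected, with medians of 272 and 199 FPKM, and the 7 inhibitory markers had a median of 21.6 FPKM. Oligodendrocyte, astrocyte and microglia markers had medians of 220, 27.8 and 24.8 FPKM, so the RNA levels above are those of mixed tissue. Dlx6os1 is also known from striatum and olfactory bulb. The 4 striatum markers summed to 14.3 FPKM, with Six3 at 0.272 and Isl1 at 0.0772 FPKM. The 4 olfactory bulb and neuroblast markers summed to 3.68 FPKM, of which Dcx made up 2.74 FPKM. Their part in the level of Dlx6os1 was not tested.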

How the data were processed

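RNA of the mPFC was measured in 1 deposited sample. Per the labels' protocols the library was made from DNase-treated total RNA with an Illumina TruSeq RNA v2 kit, which is known to select RNA with poly(A) tails and to keep no strand. RNA without a tail, such as mature Malat1 and the long form of Neat1, is measured only as far as that library captured it. The submitters' processing notes name the build mm10 and the tools TopHat, Cufflinks and CASAVA (1.8.2). The annotation release is not given in the sources used here, nor is the way replicates were combined. FPKM values were deposited by the authors in 2 columns, which were equal in 46073 of 46073 rows and were read as 1 value. The depth is unknown, so no interval is given. FPKM depends on an assumed transcript length, which for genes with long and short forms enters every comparison between genes.

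Identifiers were matched to symbols (45139 rows), and classes, spans and neighbours came from RefSeq GRCm38.p6 by symbol. A gene with several rows was given its highest. Of list genes without a row, those with 1 clear RefSeq synonym were taken under it. Named were all 10 genes, their neighbours, the snoRNA genes inside them, genes of the 28 pairs and, of the lists, up to the 3 highest and 2 lowest. Of these pairs 23 could be computed, and 15 differed by 2-fold or more in log2(FPKM + 1). The members and lists were chosen with earlier results of these data known. Snord78, Snord80 and Dlx1as were chosen after their values were seen. A few named genes of the lists and neighbours are not reported here. The functions were tested on simulated data. The work used matplotlib 3.10.9 for plots and pandas 2.3.3 with numpy 2.4.6 under Python 3.11.15.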

Additional observations from a re-analysis of the deposited data

How the results depend on the processing

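The count of detected RNAs was 8 at a floor of 0.5 FPKM and 7 at 5 or 10 FPKM. The median level of 60.9 FPKM became 52.0 as a geometric mean and 154.6 with mitochondrial rows removed and the rest rescaled to a sum of 1000000. That scaling changes no ratio between genes. The median percentile of 97.0 among all rows was 99.7 among long non-coding RNA rows, also with synonyms (99.69), 94.3 among protein-coding rows and 90.3 among rows at 1 FPKM or more. The median of the 3 measured hosts was 1.72 above that of the 5 other RNAs in log2(FPKM + 1). Among the hosts, Snhg12 itself was below Pantr1, Malat1 and Miat. The 13 other non-coding snoRNA hosts with a row had a median of 6.58 FPKM, so the difference does not describe snoRNA hosts in general. The difference was 1.74 with a pseudocount of 0.1, 1.52 by the mean and 1.30 without Dlx6os1. Over Snhg11 and Snhg12 against Neat1 and Miat, which overlap no gene other than snoRNA genes, it was 0.955. That comparison leaves out Malat1 because RefSeq lists Mascrna, which is cut from its end, inside it. Summing both Dlx6os1 rows could move neither the main difference nor the median level, since Dlx6os1 stayed lowest. The number of pairs 2-fold apart was 15 with a pseudocount of 0.1. Keeping only pairs with both genes at 1 FPKM or more could not change it, since every computed pair met that limit. The median CpG ratio was 0.883 near the start, against 0.788. The synonym, summing and Dlx6os1 alternatives were chosen after seeing the data. With 1 value per gene no library could be left out, and depth sets an unknown limit on low values. No paired analysis was possible because the table holds 1 sample.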

Other observations

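A list of other long noncoding RNAs, not limited to those of the brain, covered a wider range than the listed ones. Of 39 with a row, 24 were at 1 FPKM or more, and the median of the 39 was 2.89 FPKM. Rian at 358 and Meg3 at 253 FPKM, from the imprinted Dlk1-Dio3 region, and the imprinted Peg13 at 57.7 FPKM were highest. Hotair and Hotairm1, RNAs of the Hox clusters, were listed at 0. Dlx1as, the antisense RNA of Dlx1, stood at 12.6 FPKM beside Dlx1 at 11.9 FPKM, and it was chosen after its value was seen. Without strand, fragments of Dlx1as and Dlx1 cannot be told apart.

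Nearest in level among long non-coding RNA rows were Meg3 to Gas5, 1500009C09Rik (41.1 FPKM) and Xist (40.1 FPKM) to Miat, Snhg8 (26.3 FPKM) and 2410006H16Rik (27.0 FPKM) to Snhg12, and Gm17344 (24.6 FPKM) and Grin1os (25.4 FPKM) to Neat1. With 1 sample this likeness is of level alone. Among all rows, 124 had values above 0 but under 1e-10 FPKM, of which 13 were snoRNA rows, among them Snord99.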
